A study of Mus musculus with 6 samples.

Results

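Complex I of the mitochondrial respiratory chain is built from subunits encoded in the nucleus and a few encoded in mitochondrial DNA, and the nuclear-encoded subunits were examined here in subcutaneous white adipose tissue (scWAT). They were chosen by gene symbol alone, as all genes named *Nduf* with a letter a, b, c, s, v or ab and a number, without *Ndufa4* and *Ndufa4l2*, whose products are assigned to other roles. The rule found 36 of the 55401 genes in the count tables, on 15 chromosomes, and all 36 had enough counts to be tested. The series held 6 libraries of total RNA from bulk scWAT of 8-week-old male mice at room temperature. The 3 control mice carried floxed *Yap* and *Taz* alleles without Cre recombinase (YT-FF, called WT in the sample labels), and the 3 knockout mice carried the same floxed alleles with *Adipoq*Cre (Yapfl/fl/Tazfl/fl;AdipoqCre, YT-AKO). The *Adipoq* promoter is active in mature adipocytes, so the other cells of the tissue keep both genes. The comparison asks how the complex I transcripts differ between scWAT with and without *Yap* and *Taz* in adipocytes.

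Complex I oxidizes NADH made by the citric acid cycle and fatty acid oxidation, passes the electrons to ubiquinone and pumps protons across the inner membrane. It is shaped like an L, with a matrix arm that carries the flavin and the iron-sulfur clusters and a membrane arm that pumps. In beige and brown adipocytes, the proton gradient that it helps to build is dissipated as heat by uncoupling protein 1. The core subunits do the chemistry and are shared with bacteria. The accessory subunits surround the core and are needed to assemble and stabilize it. Below, the 7 core subunits of the matrix arm come first, then the accessory subunits of the matrix arm, the part of the membrane arm next to the matrix arm, the far part of the membrane arm, and the acyl carrier protein Ndufab1, which is bound in both arms.

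The libraries were of similar depth, with 18253559 to 20500634 counted fragments in YT-FF and 17740987 to 21838493 in the YT-AKO-labelled libraries. The targeted *Yap1* had a log2 fold change of -0.98 (edgeR, Benjamini-Hochberg adjusted p = 0.0179), the direction of the label. *Wwtr1*, which encodes TAZ, had one of 0.89 (edgeR, Benjamini-Hochberg adjusted p = 0.0220), the other direction. The counts sum all exons of a gene, so they do not show the loss of single exons, and the rise of *Wwtr1* does not settle the label. By immunoblot, the paper reported less YAP and TAZ protein in YT-AKO scWAT. Every direction given here rests on the labels. One library, YT-AKO 2, stood apart from the others, with a TMM factor of 0.778 against 0.954 to 1.16 in the other 5. Summed over 7 adipocyte markers, the YT-AKO-labelled libraries held 17102 to 29260 CPM (counts scaled by library total and TMM normalization factor) and YT-FF 10086 to 15100. Most of that difference came from *Fabp4*, with 9145 to 20200 CPM against 4066 to 7188, and the other 6 summed to 7957 to 10372 and 5897 to 7912 CPM.

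Nearly every nuclear-encoded subunit of complex I was higher in the YT-AKO-labelled libraries. In edgeR, with its quasi-likelihood test and Benjamini-Hochberg adjusted p-values, 35 of 36 were higher at an adjusted p under 0.05 and 0 were lower, where 12.6% of the 16807 tested genes were called higher and 9.01% lower. All 36 had an unadjusted p under 0.05, as did 40.8% of the tested genes in either direction. The median log2 fold change over the 36 was 1.94, with a range from 0.56 to 3.09, against -0.02 over all tested genes. In CPM, all YT-AKO-labelled libraries exceeded all YT-FF libraries for 35 of the 36, and the same held for 25.7% of the tested genes. The exception in both counts was *Ndufs1*. Since the tissue was sequenced in bulk, a change in the number of cells of a type and a change in RNA per cell cannot be told apart in these levels. At an adjusted p under 0.01 with a log2 fold change above 1, edgeR called 0 of the 36 and 0.0892% of all genes, limma-voom 0, and DESeq2 35, where it called 7.07% of all genes higher.

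**Figure D1:**
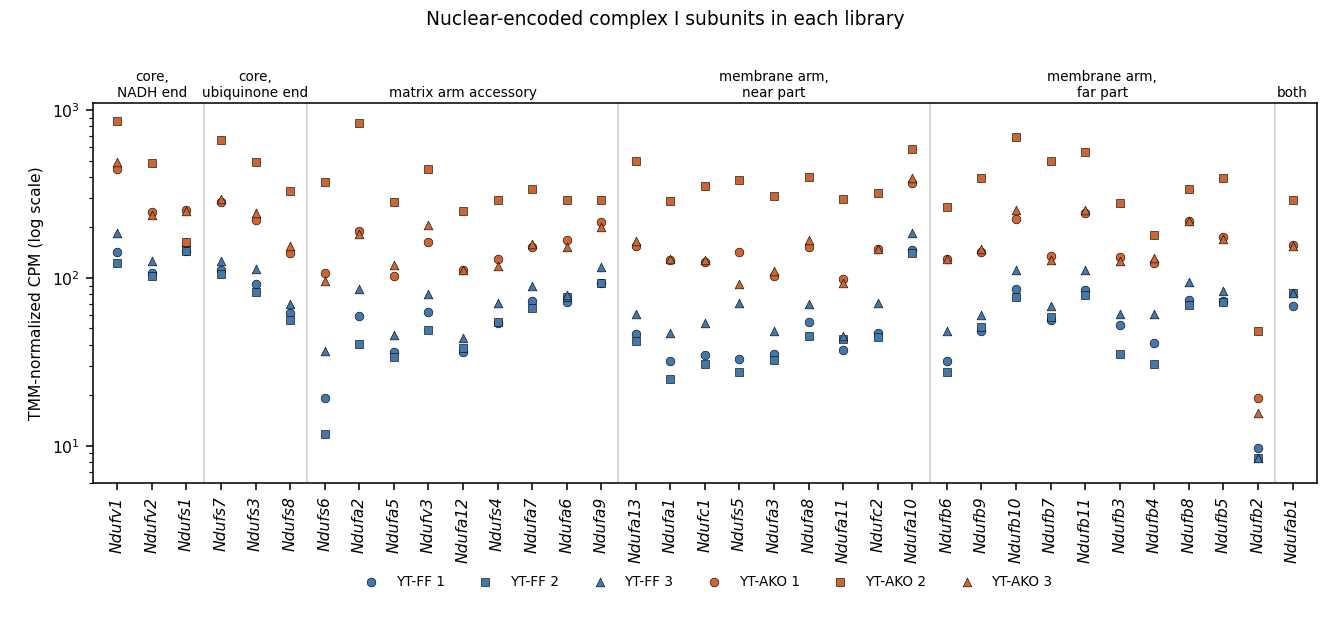
Each column is 1 of 35 nuclear-encoded complex I subunits, ordered by structural group and, within it, by log2 fold change, and each point is its level in 1 library in TMM-normalized CPM on a log scale. Blue marks the 3 YT-FF libraries and orange the 3 labelled YT-AKO. The squares of YT-AKO 2 are the highest points in 34 columns, and in the column of *Ndufs1* YT-AKO 2 falls to the level of YT-FF.

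At the NADH-oxidizing end of the matrix arm, 2 of the 3 core subunits rose. *Ndufv1* (chromosome 19, 4007384 to 4012806 of mm10), which encodes the subunit that binds NADH and the flavin, had 142, 123 and 185 CPM in YT-FF 1, 2 and 3 and 447, 862.5 and 488 CPM in YT-AKO 1, 2 and 3. The groups did not overlap, and YT-AKO 2 was well above the other libraries. The log2 fold change was 2.00 (standard error 0.30, edgeR, Benjamini-Hochberg adjusted p = 0.0171), the largest of the 7 core subunits. *Ndufv2* (chromosome 17, 66078638 to 66101559), which encodes the neighbouring iron-sulfur subunit, had 106, 103 and 126 CPM in YT-FF and 246, 482 and 238 in the YT-AKO-labelled libraries. These groups were also apart, with a log2 fold change of 1.53 (standard error 0.30, edgeR, Benjamini-Hochberg adjusted p = 0.0204).

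*Ndufs1* (chromosome 1, 63143596 to 63176833), the largest subunit and the carrier of several iron-sulfur clusters, was the member that did not pass. Its levels were 145, 145 and 164.5 CPM in YT-FF and 255, 164 and 249 CPM in the YT-AKO-labelled libraries. YT-AKO 2 was the lowest of its group and overlapped YT-FF 3, whereas for every other subunit YT-AKO 2 was the highest library of all. The log2 fold change was 0.56 (standard error 0.21, edgeR, Benjamini-Hochberg adjusted p = 0.0849), and without YT-AKO 2 it was 0.73 with a Benjamini-Hochberg adjusted p of 0.00459 in edgeR. In TPM (counts scaled by summed exon length and then to a fixed total per library), *Ndufs1* had 71.2 ± 2.30 in YT-FF and 69.2 ± 29.2 in the YT-AKO-labelled libraries (mean ± SD, n = 3). It has the longest exon model of the 36 genes, 8086 bases.

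The core subunits at the ubiquinone-reducing end of the matrix arm rose as well. *Ndufs7* (chromosome 10, 80249121 to 80256794), which carries the last iron-sulfur cluster before ubiquinone, had 111, 106 and 126.5 CPM in YT-FF and 281, 661 and 296 in the YT-AKO-labelled libraries. *Ndufs3* (chromosome 2, 90894634 to 90904827), another subunit of this end, had 92.0, 81.8 and 113 CPM in YT-FF and 222, 491 and 243 in the YT-AKO-labelled libraries. *Ndufs8* (chromosome 19, 3908863 to 3912774), an iron-sulfur subunit, had 62.2, 56.4 and 70.3 CPM in YT-FF and 142, 331 and 155 in the YT-AKO-labelled libraries. For all of these the groups were apart and YT-AKO 2 was the highest library. Their log2 fold changes were 1.85, 1.74 and 1.73, with standard errors of 0.34, 0.33 and 0.33 and Benjamini-Hochberg adjusted p-values of 0.0195, 0.0199 and 0.0203 from edgeR.

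The 9 accessory subunits of the matrix arm all rose, with a median log2 fold change of 2.00. *Ndufs6* (chromosome 13, 73319838 to 73328542), a zinc-binding subunit added late in assembly, had 19.2, 11.8 and 36.5 CPM in YT-FF and 106, 370.5 and 96.0 in the YT-AKO-labelled libraries. The groups were apart, but the YT-FF libraries themselves had a coefficient of variation of 56.4%, the highest of the 36 genes in that group. Its log2 fold change was 3.09 (standard error 0.64, edgeR, Benjamini-Hochberg adjusted p = 0.0227), the largest of all members, and without YT-AKO 2 it was 2.17. A gene with shared sequence, *Ndufs6b*, had 14 to 22 counts in YT-FF and 21 to 119 in the YT-AKO-labelled libraries, against 268 to 710 and 1627 to 6292 for *Ndufs6*. *Ndufa2* (chromosome 18, 36742332 to 36744557), a small subunit with a thioredoxin fold, had 59.2, 40.5 and 85.4 CPM in YT-FF and 189, 839 and 184 in the YT-AKO-labelled libraries. YT-AKO 2 was 4.50 times the mean of YT-AKO 1 and 3, the largest such ratio among the members. The log2 fold change was 2.71 (standard error 0.64, edgeR, Benjamini-Hochberg adjusted p = 0.0283) with all libraries and 1.60 without YT-AKO 2. *Ndufa2* had the highest level per length of the accessory matrix arm subunits in YT-FF, 406 ± 129.8 TPM (mean ± SD, n = 3), and 11.5% of its exon bases overlap *Tmco6*.

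*Ndufa9* (chromosome 6, 126821721 to 126849136), which sits where the arms meet, had the smallest change among the accessory subunits of the matrix arm with all libraries. It had 93.3, 93.1 and 116 CPM in YT-FF and 214, 291 and 202 in the YT-AKO-labelled libraries. The groups were apart, and the log2 fold change was 1.23 (standard error 0.20, edgeR, Benjamini-Hochberg adjusted p = 0.0177). Between these extremes lay *Ndufa5* with a log2 fold change of 2.13, *Ndufv3*, a small subunit of the NADH-oxidizing end, with 2.10, and *Ndufa12* with 2.00. *Ndufs4*, mutated in some families with Leigh syndrome, had 1.58, *Ndufa7* 1.51 and *Ndufa6*, which holds 1 copy of the acyl carrier protein, 1.43. Adjusted p-values of these 6 genes lay between 0.0177 and 0.0260 by edgeR with Benjamini-Hochberg adjustment.

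The 9 accessory subunits in the part of the membrane arm next to the matrix arm all rose as well, with a median log2 fold change of 2.16 with all libraries and 1.46 without YT-AKO 2. *Ndufa13* (chromosome 8, 69894180 to 69902558), also known as GRIM-19, had 46.5, 42.2 and 61.3 CPM in YT-FF and 154, 500.1 and 165 in the YT-AKO-labelled libraries. The groups were apart, with a log2 fold change of 2.45 (standard error 0.47, edgeR, Benjamini-Hochberg adjusted p = 0.0203). Of its exon bases, 30.0% overlap *Tssk6*, and fragments there were not counted for either gene if they touched both. *Ndufa1* (chromosome X, 37187588 to 37191163), a small single-pass membrane protein, had 32.0, 25.01 and 47.0 CPM in YT-FF and 127.5, 287 and 130.3 in the YT-AKO-labelled libraries. Its log2 fold change was 2.39 (standard error 0.39, edgeR, Benjamini-Hochberg adjusted p = 0.0177), with the groups apart. Per length, *Ndufa1* was the highest of this part, at 312 ± 86.0 TPM in YT-FF and 966 ± 203.5 TPM in the YT-AKO-labelled libraries (mean ± SD, n = 3).

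*Ndufa10* (chromosome 1, 92439010 to 92473860), which resembles nucleoside kinases, had the smallest change next to the matrix arm with all libraries, with 146.5, 139.9 and 185 CPM in YT-FF and 366, 584 and 395 in the YT-AKO-labelled libraries. The groups were apart, with a log2 fold change of 1.51 (standard error 0.24, edgeR, Benjamini-Hochberg adjusted p = 0.0177). The log2 fold changes of the others were 2.35 for *Ndufc1*, 2.23 for *Ndufs5*, 2.16 for *Ndufa3*, 2.10 for *Ndufa8*, 1.96 for *Ndufa11* and 1.93 for *Ndufc2*. *Ndufs5* and *Ndufa8* face the intermembrane space and carry paired cysteine motifs. *Ndufs5* had the highest adjusted p of the members that passed, 0.0358 by edgeR with Benjamini-Hochberg adjustment, and in TPM YT-AKO 3 (293) lay just below YT-FF 3 (299).

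In the far part of the membrane arm, all 10 *Ndufb* subunits rose, with log2 fold changes from 1.65 to 2.28 and a median of 1.90. Without YT-AKO 2 they ran from 0.98 for *Ndufb2* to 1.85 for *Ndufb6*. *Ndufb6* (chromosome 4, 40270591 to 40279421) had 32.2, 27.4 and 48.4 CPM in YT-FF and 130.1, 263 and 129 in the YT-AKO-labelled libraries. Its log2 fold change was 2.28 (standard error 0.35, edgeR, Benjamini-Hochberg adjusted p = 0.0176), with the groups apart, and 39.0% of its exon bases overlap *Smim27*. *Ndufb11* (chromosome X, 20615326 to 20617619), whose mutation in humans causes an X-linked disorder, had 84.8, 78.6 and 111.5 CPM in YT-FF and 242, 562 and 253.5 in the YT-AKO-labelled libraries. These groups were apart, with a log2 fold change of 1.94 (standard error 0.35, edgeR, Benjamini-Hochberg adjusted p = 0.0188), and *Ndufb11* had the highest level per length of the far part in YT-FF, 382 ± 54.2 TPM (mean ± SD, n = 3). *Ndufb2* (chromosome 6, 39592574 to 39603382) had 9.66, 8.42 and 8.48 CPM in YT-FF and 19.3, 48.2 and 15.7 in the YT-AKO-labelled libraries. It was the lowest of the 36 genes both in CPM and per length, at 5.99 ± 0.584 TPM in YT-FF (mean ± SD, n = 3), and rested on 165 to 227 counts in the YT-FF libraries. Its exon model is 5628 bases long, and 7.94% of those bases overlap *Gm16272*, *Braf* or *Gm42420*. The groups were apart, with a log2 fold change of 1.65 (standard error 0.41, edgeR, Benjamini-Hochberg adjusted p = 0.0327).

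The other far subunits had log2 fold changes of 2.10 for *Ndufb9*, which holds the other copy of the acyl carrier protein, 2.10 for *Ndufb10*, 2.05 for *Ndufb7*, 1.86 for *Ndufb3*, 1.72 for *Ndufb4*, 1.70 for *Ndufb8* and 1.70 for *Ndufb5*. *Ndufb8*, a subunit often used to gauge assembled complex I on immunoblots, had the lowest adjusted p of all members, 0.0166 by edgeR with Benjamini-Hochberg adjustment. *Ndufab1* (chromosome 7, 122085403 to 122101886), the mitochondrial acyl carrier protein, which also serves fatty acid synthesis and iron-sulfur cluster assembly, had 68.0, 81.3 and 80.9 CPM in YT-FF and 157, 289.9 and 155 in the YT-AKO-labelled libraries. Its groups were apart, with a log2 fold change of 1.39 (standard error 0.27, edgeR, Benjamini-Hochberg adjusted p = 0.0204).

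The structural groups were then set side by side, as a description. The 7 core subunits had a median log2 fold change of 1.73 and the 29 accessory subunits one of 2.00. The 16 subunits of the matrix arm had a median of 1.73 and the 19 of the membrane arm one of 2.05, and the ranges overlapped, from 0.56 to 3.09 and from 1.51 to 2.45. The core subunits have longer exon models, between 1291 and 8086 bases, and gene length moved with the log2 fold change in these libraries. Across the 36 members, Spearman's rho of log2 fold change with summed exon length was -0.698, and across all 16807 tested genes it was -0.376. These are descriptions across genes that share the same 6 libraries. Genes with 1000 to under 2000 exon bases had a median log2 fold change of 0.60 and the 13 members among them 2.00, while genes with 4000 bases or more had -0.26 and the 5 members among them 1.65.

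**Figure D2:**
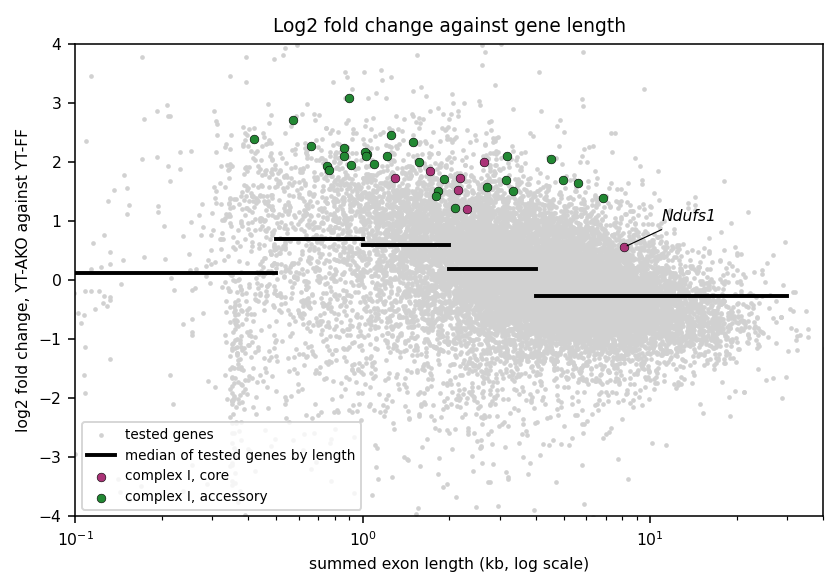
Each grey point is 1 of the tested genes, placed by its summed exon length in kb on a log axis and by its log2 fold change of the YT-AKO-labelled against the YT-FF libraries, and black bars give the median of all tested genes in 5 length classes. Coloured points are the 7 core and 29 accessory complex I subunits, all of which lie above the bar of their class. A few grey points lie outside the axes.

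With a correction for gene length in each library, the medians drew closer. They were 1.22 for the core subunits at the NADH-oxidizing end, 1.36 for those at the ubiquinone-reducing end, 1.58 for the accessory subunits of the matrix arm, 1.68 for the near part and 1.62 for the far part of the membrane arm, and *Ndufab1* had 1.71. All 36 members then passed edgeR's test, *Ndufs1* included, with a log2 fold change of 0.88 and a Benjamini-Hochberg adjusted p of 0.0231, where 10.1% of all genes were called higher. *Ndufs5* had the highest adjusted p of the members in that fit, 0.0496 by edgeR with Benjamini-Hochberg adjustment, just under the threshold. The smallest length-corrected log2 fold change was that of *Ndufs1* and the largest, 2.60, that of *Ndufs6*. Across the members, rho with length was then -0.235. The far subunits with long exon models moved up in the order, *Ndufb7* to 2.21, *Ndufb2* to 1.89 and *Ndufb5* to 1.87.

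In TPM, the differences were smaller than in CPM. A gene's own length cancels when libraries are compared, so between libraries the scales differ by 1 factor per library, the same for all genes. The smaller differences in TPM are therefore not a length correction of the members. The 36 subunits together made up 5962, 5498 and 7395 TPM in YT-FF 1, 2 and 3 and 12472, 19196 and 12317 TPM in YT-AKO 1, 2 and 3. The ratio of mean TPM between the groups had a median of 2.23 over the members, from 0.972 for *Ndufs1* to 4.79 for *Ndufs6*, while the ratio of mean CPM had a median of 3.83. In TPM, the groups were apart for 34 of the 36, without *Ndufs1* and *Ndufs5*. The share of all tested genes apart on this scale was not counted, and in CPM it was 25.7%. The order of the members per length was much the same in both groups, with a Spearman's rho of 0.920 across the 36 genes. Scaled by library totals alone, the median of all tested genes moved to -0.34 and that of the members to 1.56.

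The differences were larger with YT-AKO 2 than without it. This library had the highest CPM of all 6 libraries for 35 members, and its ratio to the mean of YT-AKO 1 and 3 had a median of 2.26, from 0.649 for *Ndufs1* to 4.50 for *Ndufa2*. The ratio was above 1.5 for 32 members. Over all tested genes, YT-AKO 2 also ran highest in the length classes under 4000 bases and lowest in that of 4000 bases or more. The share of that shift in these ratios was not tested. The coefficient of variation was smaller within YT-FF than within YT-AKO for 34 members, but not for *Ndufb4*, with 34.7% and 22.0%. YT-FF 3 was the highest of its group for 34 members and YT-FF 2 the lowest for 28. Without YT-AKO 2, the median log2 fold change over the members was 1.41, all 36 passed edgeR's test at an adjusted p under 0.05 with Benjamini-Hochberg adjustment, and 33 passed at 0.01 with a log2 fold change above 1. Calls over all genes also rose in that fit, with 16.9% called higher at 0.05 and 3.57% by the stricter rule. The calls turned on the YT-FF libraries. Without YT-FF 1 or without YT-FF 2, edgeR called 0 of the 36 at an adjusted p under 0.05 and 0 of all genes higher, although 35 members had an unadjusted p under 0.05 each time, as did 27.1% and 26.3% of all genes, and the lowest adjusted p of the members was 0.110 and 0.111. Without YT-FF 3, edgeR called 18 of the 36 and 4.03% of all genes higher.

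**Figure D3:**
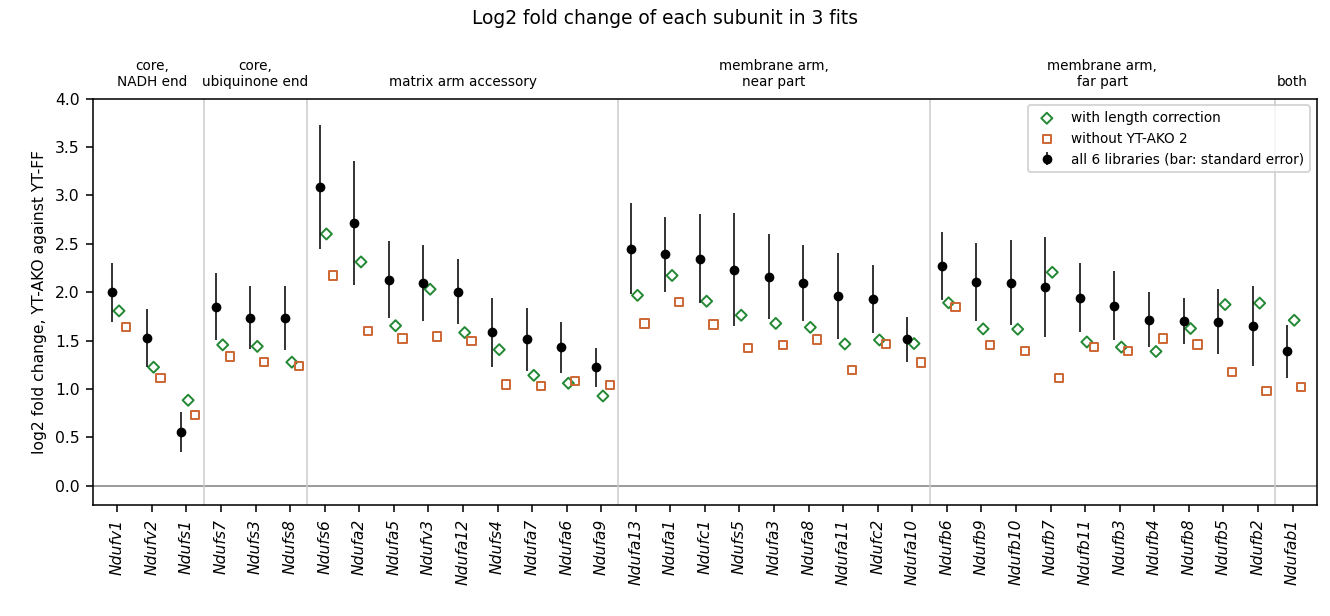
Each column is 1 of 35 subunits in the order of the plot of levels, and the vertical axis is the log2 fold change of the YT-AKO-labelled against the YT-FF libraries. Black points with bars give edgeR's estimate and its standard error with all 6 libraries, green diamonds the estimate with a correction for gene length, and orange squares the estimate without YT-AKO 2. Every estimate lies above 0, and the squares lie below the black points in every column but that of *Ndufs1*.

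Markers of other cells moved between the groups too, and their part in the complex I result was not tested. The 6 thermogenic adipocyte markers summed to 156 to 223 CPM in YT-FF and to 1601 to 3439 CPM in the YT-AKO-labelled libraries, highest in YT-AKO 2, and 5 of them were called higher by edgeR, *Ucp1*, *Cidea*, *Cox8b*, *Elovl3* and *Dio2*. Of the 7 adipocyte markers 2 were called higher, *Fabp4* and *Lipe*, and of the 5 fibroblast markers 1, *Pi16*. The 8 skeletal muscle markers, from a tissue rich in complex I, summed to 113 to 413 CPM in YT-FF and 209 to 2990 in the YT-AKO-labelled libraries, with 1 of 7 tested called higher, *Acta1*. Muscle markers were highest in YT-AKO 1, at 2990 CPM, and YT-AKO 2 and 3 had 441 and 209 CPM, while the 36 complex I subunits summed to 6608, 14393 and 6733 CPM in YT-AKO 1, 2 and 3. Among B cell markers 2 of 5 were called lower, among T cell markers 1 of 5 and among endothelial markers 1 of 4, and 0 of 5 macrophage and 0 of 4 Schwann cell markers were called either way. For comparison, 12.6% of all tested genes were called higher and 9.01% lower. Of the markers of brown fat depots, *Zic1* had 0 counts in every library and *Lhx8* was not called. Of the 5 epithelial markers, *Krt5* had 0 counts in every library and *Krt8*, *Krt14* and *Krt18* had 0 to 14. *Epcam* had 35 to 54 counts and was not called.

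The 7 core subunits of the membrane arm are encoded in mitochondrial DNA (*mt-Nd1* to *mt-Nd6* and *mt-Nd4l*). All of them are listed at 0 in all 6 libraries, so these tables hold no value for the proton-pumping core. *Ndufa4*, once counted as a complex I subunit and now placed in complex IV, had 152, 155 and 205 CPM in YT-FF and 400.0, 1001 and 411 in the YT-AKO-labelled libraries. Its log2 fold change was 1.82 (standard error 0.38, edgeR, Benjamini-Hochberg adjusted p = 0.0232). Its paralogue *Ndufa4l2* had a log2 fold change of 1.41 and did not pass (edgeR, Benjamini-Hochberg adjusted p = 0.0746), but was called higher by DESeq2 (adjusted p = 0.0150). *Ndufb1-ps*, whose symbol the rule does not match, had 376 to 452 counts in YT-FF and 738 to 1991 in the YT-AKO-labelled libraries.

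Assembly factors, which build complex I from modules but are not part of the finished enzyme, had smaller log2 fold changes before the length correction. The lists were not matched for gene length. Of 21 listed, 20 were found and tested, and 15 were higher and 0 lower by edgeR with Benjamini-Hochberg adjustment, with a median log2 fold change of 0.96. Over all tested genes, 12.6% were called higher and 9.01% lower. With the length correction 11 were called, without *Ndufaf1*, *Ndufaf2*, *Ndufaf6* and *Tmem70*, where 10.1% of all genes were called higher. With library totals alone 12 were called, against 6.77% of all genes. The largest change was that of *Ndufaf8*, which acts with Ndufaf5, with 9.62, 6.36 and 10.9 CPM in YT-FF and 20.3, 61.2 and 25.8 in the YT-AKO-labelled libraries and a log2 fold change of 2.00 (edgeR, Benjamini-Hochberg adjusted p = 0.0244). The 5 that did not pass had log2 fold changes of 0.90 (*Nubpl*), 0.26 (*Dmac2*), 0.18 (*Lyrm2*), 0.054 (*Acad9*) and -0.090 (*Tmem186*), and the signs of all but *Nubpl* turned under other settings. *Acad9* was called higher with the length correction without YT-AKO 2, at 0.58 (edgeR, Benjamini-Hochberg adjusted p = 0.0142). *Ndufaf2*, whose place in the enzyme is later taken by Ndufa12, had a log2 fold change of 1.68.

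Of 8 other enzymes that reduce ubiquinone, 6 were higher and 0 lower, with a median log2 fold change of 0.87, where 12.6% of all tested genes were called higher. The largest change was that of *Sdhb*, the iron-sulfur subunit of complex II, with 162, 166 and 228 CPM in YT-FF and 473, 894 and 503 in the YT-AKO-labelled libraries and a log2 fold change of 1.75 (edgeR, Benjamini-Hochberg adjusted p = 0.0177). *Gpd2*, the mitochondrial glycerol phosphate dehydrogenase, had the smallest, 0.25 (edgeR, Benjamini-Hochberg adjusted p = 0.373), and turned to -0.056 with library totals alone. With the length correction and without YT-AKO 2 it was called higher, at 0.55 (edgeR, Benjamini-Hochberg adjusted p = 0.0373). *Sqor*, the sulfide oxidoreductase, had 0.64 and lay at the threshold (edgeR, Benjamini-Hochberg adjusted p = 0.0510, and 0.0317 by DESeq2). Of 10 transcription regulators of nuclear respiratory genes, 9 were tested and 1 was higher, *Esrra*, with a log2 fold change of 0.61 (edgeR, Benjamini-Hochberg adjusted p = 0.0380), which it lost with library totals alone (adjusted p = 0.309, edgeR with Benjamini-Hochberg adjustment). The median over these 9 was -0.09, and the lowest was *Esrrg* at -1.51 (edgeR, Benjamini-Hochberg adjusted p = 0.0870, and 0.0277 by DESeq2).

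**Figure D4:**
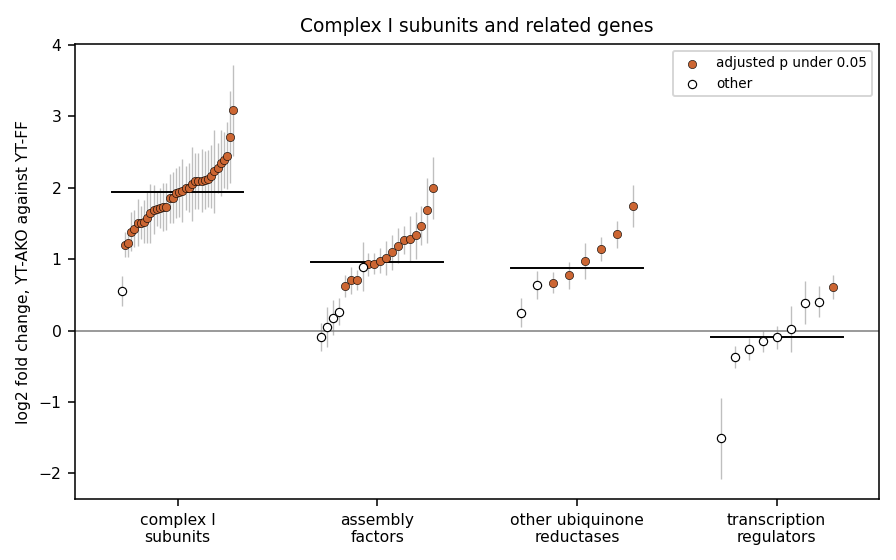
Each point is 1 gene, with its log2 fold change of the YT-AKO-labelled against the YT-FF libraries and a grey bar of 1 standard error, and the black line is the median of the list. Filled points have an edgeR adjusted p under 0.05. No length correction was applied, and the lists were not matched for gene length. The medians are 1.94 for 36 complex I subunits, 0.96 for 20 assembly factors, 0.87 for 8 other ubiquinone reductases and -0.09 for 9 transcription regulators.

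Since the subunits moved together, their promoters were searched for the motifs of factors known to act on respiratory genes. RefSeq windows (GRCm38.p6) from 250 bases before to 50 after the start were at hand for 32 of the 36 genes, as 34 windows, and *Ndufa2*, *Ndufs1* and *Ndufb9* were among those without one. Searched on both strands, the NRF1 motif GCGCANGCG was in 26.5% of the member windows and 6.25% of all 32851 windows. It was found in 8 genes. The YY1 motif AAGATGGCG was in 14.7% and 1.40%, the cyclic AMP response element TGACGTCA in 8.82% and 1.79%, and the ERR motif AAGGTCA in 8.82% and 4.72%. The GABPA motif CCGGAAGT was in 2.94% and 3.89%, and the TEAD motif CATTCCA, for the factors that bind YAP and TAZ, in 5.88% and 4.29%. Of the 34 member windows, YY1 matched 5, the cyclic AMP response element 3, ERR 3, GABPA 1 and TEAD 2. Member windows were richer in G and C, with a median of 59.2% against 52.7%, so the shares are descriptions and a match is not a binding site. The 120 bases before the start are shown for 4 members with no annotated exon of their own there, a pair with a match (in capitals) and a pair of matrix arm core subunits without one. They are *Ndufa11* (chr17:56717642-56717761, plus strand), with overlapping NRF1 matches on both strands, *Ndufb2* (chr6:39592445-39592564, plus strand), with a cyclic AMP response element, *Ndufv2* (chr17:66101560-66101679, minus strand) and *Ndufs8* (chr19:3912775-3912894, minus strand), each printed 5′ to 3′ on the strand of the gene.
Ndufa11: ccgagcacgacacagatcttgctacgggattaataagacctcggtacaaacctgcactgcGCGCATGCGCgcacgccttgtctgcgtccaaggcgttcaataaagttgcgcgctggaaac
Ndufb2: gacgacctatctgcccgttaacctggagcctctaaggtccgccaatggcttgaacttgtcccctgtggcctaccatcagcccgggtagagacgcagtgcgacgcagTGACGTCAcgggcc
Ndufv2: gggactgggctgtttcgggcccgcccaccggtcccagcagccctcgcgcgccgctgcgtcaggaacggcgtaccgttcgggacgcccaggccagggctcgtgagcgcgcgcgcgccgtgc
Ndufs8: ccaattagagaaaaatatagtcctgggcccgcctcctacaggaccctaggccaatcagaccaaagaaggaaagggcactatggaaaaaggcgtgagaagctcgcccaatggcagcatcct

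The log2 fold changes of *Ndufa11* (1.96) and *Ndufb2* (1.65) lay on either side of that of *Ndufs8* (1.73), and *Ndufv2* was lower, at 1.53.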

How the data were processed

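Bulk RNA-seq libraries of scWAT, 3 of YT-FF and 3 of YT-AKO mice, were grouped by the genotype in the labels. Libraries were made with a kit that does not mark strand. The authors mapped paired-end reads to mm10 with HISAT2 and deposited raw counts of fragments per gene, made per the file headers with featureCounts 2.0.1 on exons of GENCODE vM25, without strand. By that command, a fragment that touched several genes or mapped to several places was not counted, which lowers genes that overlap others or have close copies. Of 55401 gene identifiers, 55141 matched a symbol, 30027 had at least 1 count and 16807 passed edgeR's filter.

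Counts were tested in R 4.3.3 with edgeR 4.0.16 (TMM, filterByExpr with minimum count 10 and minimum total 15, quasi-likelihood test, Benjamini-Hochberg adjustment over all tested genes), at an adjusted p under 0.05. The biological coefficient of variation was 0.288. CPM use the TMM factors and TPM the summed exon lengths. DESeq2 1.42.0, limma-voom (limma 3.58.1), other normalizations and filters, robust estimation, a replicate block, a length correction (a spline with 6 degrees of freedom on log2 exon length in each library) and each library left out were alternatives. The length correction without YT-AKO 2 was added after the data were seen. On simulated counts of 16403 genes with these means and library sizes and 200 genes changed by a log2 fold change of 2, edgeR recovered 166 (83%) and called 9 unchanged genes. The simulated counts held no TMM factors, no trend with gene length and no library set apart, so these rates need not hold for the real libraries.

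The depth, 17740987 to 21838493 fragments per library, puts 3 counts at 0.137 to 0.169 CPM, counting error only. Each group was 3 mice, so p-values measure the spread between these mice. Members and lists were chosen with earlier results of these data known, so no test was made over a list. Every member is named with its log2 fold change, except for a result that is not reported here. Values per library are given for the core subunits and, in each other structural group, for the largest and smallest log2 fold change and the highest TPM in YT-FF, and in other lists the largest and smallest log2 fold changes are named. *Wwtr1* and *Yap1*, *Ndufa4*, copies of members and the genes that make up counts of 5 or fewer were named beside these, with their values known. *Coa1* of the assembly factor list was not matched to a symbol, and the promoters come from RefSeq (GRCm38.p6).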

Additional observations from a re-analysis of the deposited data

How the results depend on the processing

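The log2 fold changes of all 36 members were above 0 under every alternative run. With the replicate number as a block, edgeR called 0 of 36 members, 0 of 20 assembly factors and 0 of 8 other ubiquinone reductases, and the same with the block and the length correction, where 0.143% and 0.351% of all genes were called higher. All 36 members kept an unadjusted p under 0.05 in both, as did 34.5% and 30.3% of all genes, and the lowest adjusted p was 0.0584 and 0.0557 (edgeR, Benjamini-Hochberg). Deviations from the group means correlated at 0.126, -0.118 and -0.0893 between libraries with the same number. Between libraries with different numbers the correlations ran from -0.140 to 0.160. With 3 libraries per group, whose deviations must sum to 0, these values cannot decide whether the number pairs the mice. With each library left out in turn, members called ranged from 0 to 36, assembly factors from 0 to 15 and ubiquinone reductases from 0 to 7. Of all genes, 0% to 16.9% were called higher in those fits. Ubiquinone reductases called also fell to 3 with library totals alone, where 6.77% of all genes were called higher. The cause was not tested. At an adjusted p under 0.01 with a log2 fold change above 1, members called went from 0 to 35 with DESeq2 (7.07% of all genes). They were 35 with no filter (4.05% of all genes) and 26 with the length correction without YT-AKO 2 (2.59% of all genes). With each library left out they ranged from 0 to 33, the latter without YT-AKO 2, where 3.57% of all genes were called higher. Without YT-AKO 2 the median log2 fold change over members moved to 1.41, and to 1.22 with the length correction too, where the structural groups had 0.98 (NADH-oxidizing end), 1.03 (ubiquinone-reducing end), 1.25 (matrix accessory), 1.28 (near part) and 1.22 (far part). With each library left out, the medians ranged from 1.41 to 2.15 over all members, 1.11 to 1.72 (NADH-oxidizing end), 1.26 to 1.96 (ubiquinone-reducing end), 1.50 to 2.22 (matrix accessory), 1.46 to 2.44 (near part) and 1.41 to 2.11 (far part). Some genes that were not called by the test as reported changed sign. *Acad9* had 0.583 with the length correction without YT-AKO 2, where it was called higher (edgeR, Benjamini-Hochberg adjusted p = 0.0142), 0.373 with the length correction, -0.022 with limma-voom, -0.231 with library totals alone and -0.018 with the block, and ranged from -0.147 to 0.327 with each library left out. *Lyrm2* had -0.162 with library totals alone, -0.247 with the length correction, -0.250 with the block and the length correction, -0.282 with the length correction without YT-AKO 2, and ranged from -0.039 to 0.353 with each library left out. *Tmem186* had 0.030 with the length correction without YT-AKO 2, and ranged from -0.175 to 0.074 with each library left out. With library totals alone, *Dmac2* had -0.090 and *Gpd2* -0.056. Depth limited no member, since each had at least 165 counts in every library.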
